A study of Rattus norvegicus with 4 samples.

Results

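The genes described here are 10 genes by which macrophages are commonly recognised, read in 4 samples of NR8383, a line of rat alveolar macrophages: Lyz2, Cd68, Spi1, Csf1r, Adgre1, Mrc1, Siglec1, Cd163, Itgam and Aif1. They were taken by name, as all gene probes whose RefSeq transcript belongs to one of these symbols, which gave 14 of the 45598 gene probes and 10 of the 16581 genes that could be named. The cells come from a lung lavage of a normal rat and were used after 20 passages, so they are 1 established line grown alone and not macrophages taken from a lung. Every culture received multi-walled carbon nanotubes of the type NRCWE006 (fibre-like particles of rolled carbon sheets) for 4 h, at a dose of 1 cm2 per cm2, and each of the 4 biological replicates was hybridised to 1 array. Control cultures are named in the design of the study but were not analysed here. No value below is therefore an effect of the exposure. The questions are which of these genes were measurable and how far the 4 arrays, each with its own culture, differed.

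Macrophages arise under the transcription factor PU.1, encoded by Spi1, and most depend for survival on the receptor encoded by Csf1r. Alveolar macrophages differ from other macrophages in growing under granulocyte-macrophage colony-stimulating factor, which induces the lipid regulator encoded by Pparg. In the mouse lung they carry much Siglec1 and little Itgam on their surface. The remaining members serve digestion (Lyz2, Cd68), uptake of sugars and haemoglobin (Mrc1, Cd163) and movement of the actin cytoskeleton (Aif1), and Adgre1 encodes the surface antigen F4/80.

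Of the 10 genes, 4 were well above background on all 4 arrays (40%), namely Lyz2, Cd68, Spi1 and Aif1, against 11.9% of the 16419 named genes measured on every array. A probe was well above background when the scanner software flagged over 50% of its spots so. Siglec1 was well above background on 2 arrays and Cd163 on 1. Csf1r, Adgre1, Mrc1 and Itgam were so on no array, as were 70.9% of named genes. By the weaker flag of the software, for a signal positive and significant against background, Siglec1 passed on all 4 arrays, Csf1r and Mrc1 on 3 and Adgre1 on none. In bulk RNA, fewer cells expressing a gene and less RNA per cell cannot be told apart.

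**Figure D1:**
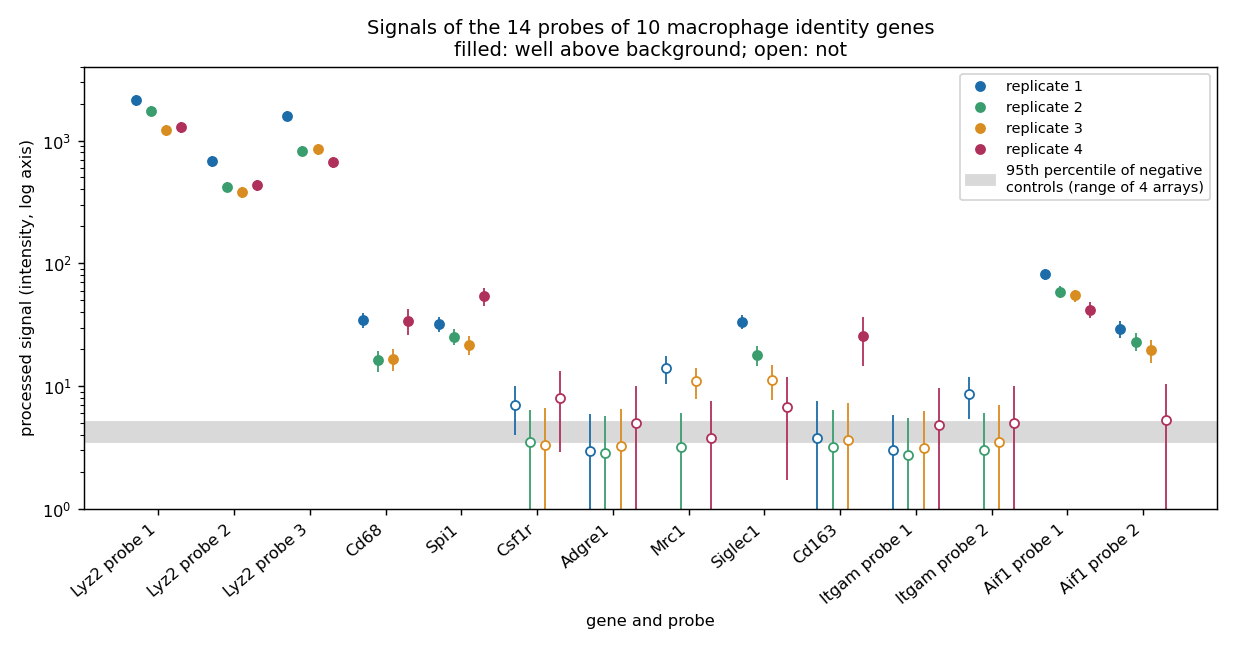
Processed signal (intensity, log axis) of the 14 probes on each of the 4 arrays, with the error that the scanner software gives per spot (averaged over kept spots). Filled points were well above background and open points were not, and the grey band spans the 95th percentile of the negative control spots of the 4 arrays (3.48 to 5.10). The 3 Lyz2 probes and the first Aif1 probe are filled on every array, whereas both Itgam probes and the Adgre1 probe are open and lie in or near the band.

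Counted by probe, 6 of 14 passed on every array (42.9%, against 7.04% of all gene probes), 3 on some arrays and 5 on none. They covered 34 spots, and 10 of the 14 probes had 1 spot per array. The arrays differed in general brightness. The 75th percentile of the signal over probes that passed on every array lay between 223 and 384, and the median negative control signal between 2.98 and 4.61, with the highest control value on replicate 4. Replicate 4 also had 656 non-uniform gene spots, against 9 to 34 on the others. Precision is limited by there being 4 arrays. A level below is the log2 signal minus the log2 of this percentile on its own array. Signal heights of different probes were ranked only to take the brightest detected probe of a gene as its value. On replicates 1 to 4, 8, 8, 7 and 7 of the 14 probes were well above background, against 12.6%, 10.4%, 9.33% and 14.4% of all gene probes.

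Lyz2 encodes the lysozyme of macrophages, an enzyme that cuts bacterial cell walls, and it was the member with the most spots. Its first probe (A_44_P1146256, for transcript NM_012771) was printed 10 times on each array, and its signal, averaged over spots on the log2 scale, was 2133, 1745, 1218 and 1285 on replicates 1 to 4. Relative to the percentile of each array, the log2 level was 2.47, 2.64, 2.37 and 2.53, with a mean of 2.50 ± 0.11 (SD, n = 4). These levels spanned 0.27 on the log2 scale, and the SD was smaller than that of 88.1% of the 1946 detected named genes.

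The other Lyz2 probes gave the same detection but not the same order of the arrays. The second probe (A_64_P025286), also printed 10 times, had signals of 680, 420, 379 and 434 and log2 levels of 0.82, 0.58, 0.68 and 0.96, so replicate 4 was highest and replicate 2 lowest. On the first probe, replicate 2 was highest. The third probe (A_44_P1154697), printed 2 times, had signals of 1592, 825, 849 and 667 and levels of 2.05, 1.55, 1.85 and 1.58, with replicate 1 highest. A moderated F test over the arrays in limma, with spots as repeats, called both probes printed 10 times, with adjusted p = 0.0042 for the first and 0.018 for the second, as it did 81% of the 1350 probes it could test. Without replicate 2 it called neither of them (adjusted p = 0.059 and 0.090). Without replicate 3 the first had adjusted p = 0.081, and without replicate 4 the second had 0.215 in limma. The test sets arrays against the noise between spots, not cultures against each other, and the 3 probes of this gene did not share an order.

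**Figure D2:**
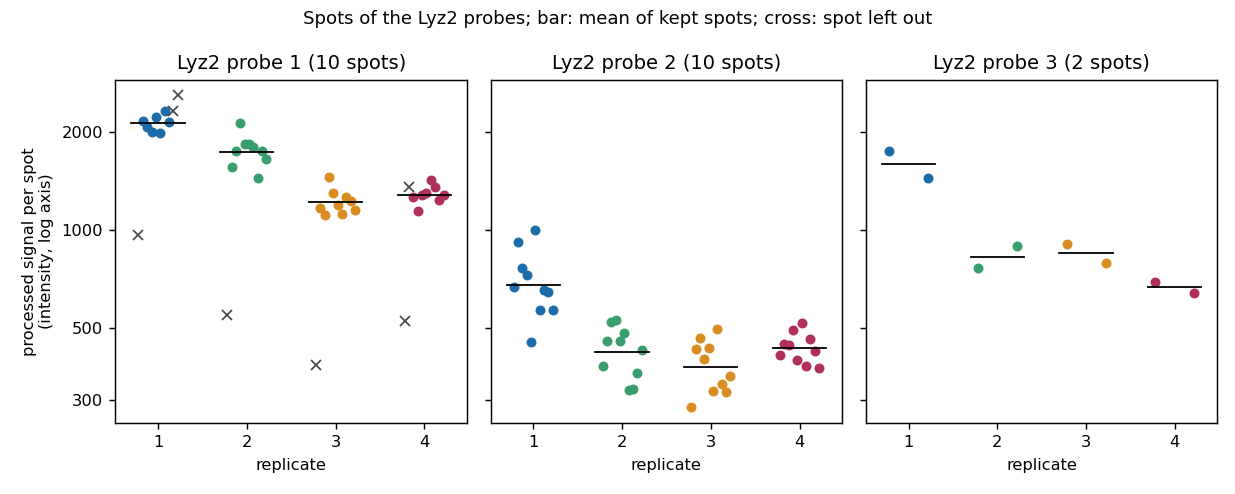
Processed signal of each spot (intensity, log axis) of the 3 Lyz2 probes on replicates 1 to 4. Points are spots used, crosses are spots the software flagged as non-uniform or outliers, and bars are the mean of the used spots on the log scale. On the first probe a low spot was left out on every array, and replicate 1 had the highest bar on each probe.

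The spots show how a probe printed many times is read. On the first probe, the same printed position gave the lowest signal on all 4 arrays, at 966, 548, 384 and 526 on replicates 1 to 4. These values were 45.0%, 31.2%, 32.2% and 41.0% of the median of the spots kept, and the software flagged each as non-uniform or as an outlier. The spots kept ranged from 1985 to 2334 on replicate 1 and from 1113 to 1459 on replicate 3, so these arrays did not overlap before scaling. Between spots of an array the SD of the log2 signal was 0.083 to 0.158 on this probe and 0.150 to 0.337 on the second.

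Rat Lyz2 has a neighbouring lysozyme gene, Lyc2, for which no probe was named here. The 250 bases before the start of the 2 genes end in 39 identical bases in the RefSeq promoter table of assembly GRCr8. Whether RNA of Lyc2 binds to the Lyz2 probes was not tested, so the Lyz2 signal is uncertain between the pair.

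Cd68 encodes a heavily glycosylated protein of the lysosome membrane of phagocytes. Its only probe (A_64_P019260) had 1 spot per array, with signals of 34.6, 16.3, 16.6 and 34.1 on replicates 1 to 4 and software errors of 4.80, 3.20, 3.33 and 7.94. All were flagged well above background, and replicates 1 and 4 were about equal in signal, above replicates 2 and 3. After scaling, the log2 levels were -3.47, -4.11, -3.83 and -2.71, with an SD of 0.61, larger than that of 93.3% of detected genes in this setting.

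The high scaled value of Cd68 on replicate 4 depended on how the spot was read and on how the arrays were scaled. A second reading, the median pixel of the spot minus its local background, was 44, 26, 28 and 27, above the processed signal on replicates 1 to 3 and below it on replicate 4. By this measure replicate 4 was like replicates 2 and 3. The difference of replicate 4 from the mean of the other arrays was 1.096 on the log2 scale with the processed signal, -0.47 with the percentile taken over all gene probes, -0.21 when the arrays were quantile normalized and 0.25 with the median pixel. It was 0.088 when the level of the negative control spots was subtracted as well. The medians over all detected named genes in these 5 settings were -0.07, -1.64, -0.47, 0.089 and 0.061. The SD of Cd68 changed as well. It was 0.34 with the percentile over all gene probes, 0.18 with quantile normalization and 0.19 with the median pixel. The median SDs over all detected named genes there were 0.85, 0.36 and 0.24. Without scaling the SD of Cd68 was 0.61, against a median of 0.46.

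Spi1 encodes PU.1, the transcription factor that directs cells into the macrophage lineage. Its probe (A_44_P433783), with 1 spot per array, had signals of 32.0, 25.3, 21.8 and 53.9 with errors of 4.39, 3.77, 3.86 and 9.36, and all 4 were well above background. Replicate 4 lay above the other 3, which had log2 levels of -3.58, -3.48 and -3.44 against -2.05. The SD was 0.73, larger than that of 96.6% of detected genes in this setting, and 0.049 over replicates 1 to 3 alone. With the percentile over all gene probes it was 0.15, and with quantile normalization 0.32, against medians over all detected genes of 0.85 and 0.36. It exceeded that median with the normexp background correction (0.30 against 0.167), the median pixel (0.50 against 0.24) and no scaling (0.57 against 0.46). The median pixel minus local background was 44.5, 31, 31 and 49, so replicate 4 was also highest there, by less. The difference of replicate 4 from the others was 1.45 with the processed signal, 0.97 with the median pixel, 0.54 after the normexp background correction, and -0.11 when scaled by all gene probes, where the median of all detected genes was -1.64. With the median of all detected genes subtracted it lay between 0.46 with normexp and 1.52. A single array cannot be tested against the others over cultures.

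**Figure D3:**
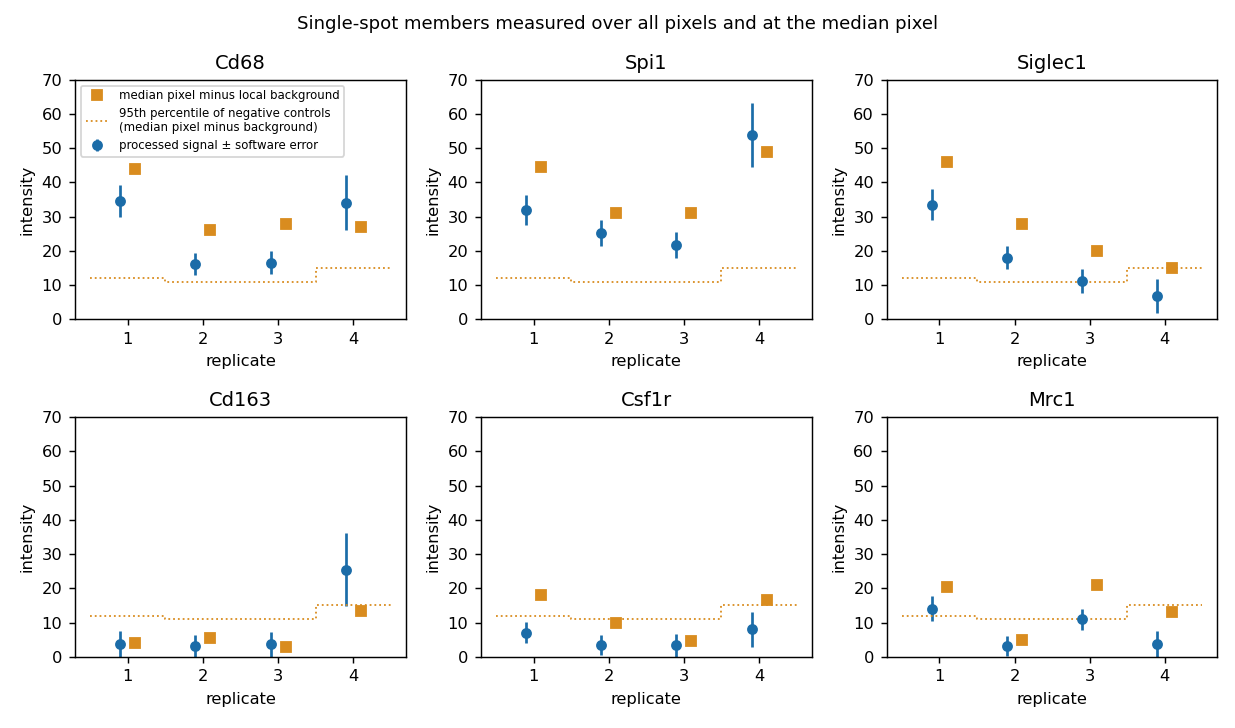
Intensity of 6 members with 1 spot per array on replicates 1 to 4, as the processed signal with the software's error (circles) and as the median pixel minus local background (squares). Dotted lines give the 95th percentile of the negative control spots for the second measure (11 to 15). On replicate 4, Cd68 is level with replicate 1 in the first measure and with replicates 2 and 3 in the second. Cd163 there is high in the first measure and below the dotted line in the second, and Spi1 is highest in both.

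PU.1 binds DNA at sites built around the letters GAGGAA, so the 250 bases before the start of the members were searched for these letters on both strands (TTCCTC on the other) in the RefSeq promoter table of GRCr8. The table held 7 of the 10 members, without Spi1, Siglec1 and Aif1, and 6 of the 7 had a match, against 23.3% of the 33469 promoters of the same length. Shown are 2 members detected on all arrays and 2 on none, with matches in capitals, 5′ to 3′ on the strand of the gene.
Lyz2 (chr7:54798012-54798261, minus strand): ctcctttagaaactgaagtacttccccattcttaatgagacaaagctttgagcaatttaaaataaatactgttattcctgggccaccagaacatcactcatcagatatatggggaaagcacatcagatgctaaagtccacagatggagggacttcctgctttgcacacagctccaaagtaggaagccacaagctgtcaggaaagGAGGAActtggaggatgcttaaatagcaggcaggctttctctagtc
Cd68 (chr10:54882442-54882691, minus strand): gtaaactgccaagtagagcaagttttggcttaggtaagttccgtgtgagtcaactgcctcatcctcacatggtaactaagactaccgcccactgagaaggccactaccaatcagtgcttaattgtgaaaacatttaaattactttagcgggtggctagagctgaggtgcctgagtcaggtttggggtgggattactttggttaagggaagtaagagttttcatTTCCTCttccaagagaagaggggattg
Itgam (chr1:192089342-192089591, plus strand): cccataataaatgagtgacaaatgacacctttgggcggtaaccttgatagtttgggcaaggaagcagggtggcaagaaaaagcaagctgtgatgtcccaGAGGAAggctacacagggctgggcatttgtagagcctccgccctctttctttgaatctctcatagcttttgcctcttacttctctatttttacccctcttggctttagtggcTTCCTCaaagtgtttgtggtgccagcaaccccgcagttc
Mrc1 (chr17:82157475-82157724, plus strand): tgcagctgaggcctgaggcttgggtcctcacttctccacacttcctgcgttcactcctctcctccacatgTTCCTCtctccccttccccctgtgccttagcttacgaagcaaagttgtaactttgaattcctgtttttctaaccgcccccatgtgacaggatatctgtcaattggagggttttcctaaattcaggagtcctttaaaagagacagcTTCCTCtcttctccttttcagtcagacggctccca
The match began 46 bases before the start in Lyz2 and 27 in Cd68. Itgam had matches at 151 and 39 bases and Mrc1 at 180 and 35, although neither gene was well above background on any array. Csf1r and Adgre1 held a match as well and Cd163 did not, so the letters were present on both sides of detection. A match describes the sequence and is no evidence of binding.

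Aif1, which encodes the actin-bundling protein IBA1, was measured by 2 probes of the same transcript (NM_017196), and their calls differed on replicate 4. The first (A_44_P1087313), printed 2 times, had signals of 81.6, 58.9, 54.7 and 42.0 on replicates 1 to 4 and was well above background on every array. Its log2 levels were -2.23, -2.25, -2.11 and -2.41, with a mean of -2.25 ± 0.12 (SD, n = 4). The second (A_44_P421534), with 1 spot, had signals of 29.3, 23.0, 19.6 and 5.32. It was well above background on replicates 1 to 3 and not on replicate 4, where the signal was close to its error of 5.12. On the first probe replicate 4 was also lowest, with spots of 33.3 and 53.0 and a difference of -0.21 on the log2 scale from the mean of the other arrays. The value of the second probe there passed the weaker flag, but its error was about as large as its signal, so its difference of -1.75 is uncertain. Read by the median pixel minus local background, the second probe had 31, 24.5, 20.5 and 17, and replicate 4 differed from the mean of the others by -0.071 on the log2 scale after scaling, against 0.054 on the first probe. The probes thus differed on replicate 4 in the processed signal and hardly in the median pixel, from which the level of the negative controls was not subtracted. That level was 7.5 on replicate 4, a large part of the 17 read there. The likeness in the median pixel therefore cannot show whether the probes agreed. Among the 581 detected named genes with several probes, 66.1% likewise had a probe without this flag on at least 1 array.

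Siglec1, the sialic acid receptor that marks alveolar macrophages in tissue, lay at the limit of detection. Its probe (A_42_P686879) had signals of 33.6, 18.0, 11.2 and 6.78, with errors of 4.53, 3.39, 3.53 and 5.04. Replicates 1 and 2 were well above background and replicates 3 and 4 were not, although all 4 passed the weaker flag. The median pixel minus background had the same order, at 46, 28, 20 and 15. With that weaker flag, or with detection set by the negative controls, 5 of the 10 members were detected, Siglec1 being the fifth, against 23.4% and 21.7% of named genes.

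Csf1r, the receptor for macrophage colony-stimulating factor, was measured by 1 probe (A_44_P257582) with signals of 7.01, 3.50, 3.30 and 8.05. None was well above background, but those of replicates 1 and 4 exceeded the 95th percentile of negative controls (4.00 and 5.10 there) by more than 10%. On replicate 3 the signal before the software's floor was below 0, at -4.61. Mrc1, the mannose receptor, had signals of 14.0, 3.19, 10.95 and 3.78 (A_43_P18738), again with 2 arrays above the negative controls, here replicates 1 and 3. Replicate 1 thus exceeded the negative controls for both genes, replicate 4 for Csf1r and replicate 3 for Mrc1. Both genes passed the weaker flag on 3 arrays.

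Itgam, which encodes CD11b, the alpha chain of a complement receptor, had 1 probe at 3.04, 2.77, 3.12 and 4.84 (A_43_P15993) and another, for transcript XM_006230214, at 8.62, 3.01, 3.53 and 5.02 (A_44_P1161690). Of these 8 values, the 8.62 of replicate 1 was the only one above the negative controls. Adgre1 had 2.94, 2.85, 3.24 and 4.97 (A_44_P362749) and passed no flag on any array. Its background-subtracted signal was below 0 on all 4 arrays, so these values are floors and have no order. A gene missing this flag can still be expressed below what the arrays resolve.

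Cd163, the scavenger receptor for haemoglobin bound to haptoglobin, was called on replicate 4 alone. Its probe (A_64_P053012) had signals of 3.79, 3.20, 3.65 and 25.5, and the last had an error of 10.8. The median pixel minus background was 4, 5.5, 3 and 13.5, and the value on replicate 4 was below the 15 that marks the 95th percentile of negative controls on that array. Among the 40 further macrophage genes with a probe, those also called on replicate 4 alone included the receptor genes Marco and Mertk and the transcription factor gene Maf, all named after their values were seen. Marco had signals of 3.87, 3.27, 3.21 and 68.8, and Mertk 5.11, 4.73, 3.93 and 71.3. The median pixel of Marco was 21 on replicate 4 and 5.5 to 9.0 on the others, and that of Mertk was 32 against 7.5 to 11.5.

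Over the whole array, 7.21% of named genes were called on replicate 4 alone, against 3.00%, 0.402% and 0.274% on replicates 1, 2 and 3 alone. Sftpb, a surfactant gene of lung epithelium, and Cdh5, a cadherin gene of endothelium, were among them (both named after their values were seen), with signals of 45.0 and 62.8 on replicate 4 and 3.02 to 4.07 on the others. The median error was 23.8% of the signal for probes called on replicate 4 alone and 18.3% for those on replicate 1 alone. Their median signal was 37.5 and their median pixel minus background 29, while for replicate 1 these were 22.2 and 29. What set replicate 4 apart was not tested.

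The other genes of the macrophage programme were read from lists chosen with earlier results known. Of 40 genes with a probe, 14 were well above background on all arrays (35%, against 11.9% of named genes), 10 on some and 16 on none. The adaptor and pan-leukocyte list had 4 of 6 detected. Tyrobp and Fcer1g, signalling adaptors of myeloid receptors, had levels of 2.44 ± 0.10 and 1.86 ± 0.18, Laptm5, a lysosomal protein of blood cells, 2.70 ± 0.14 and the actin-binding Coro1a -1.28 ± 0.64 (SD, n = 4). Ptprc, the common leukocyte antigen CD45, was well above background on replicate 3 alone, with signals of 17.0, 11.6, 16.9 and 4.03. It is named after its values were seen.

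Among lineage transcription factors, 3 of 10 were detected. Pparg, the regulator of alveolar macrophage identity, had signals of 480.5, 368, 355 and 146 on replicates 1 to 4, a level of 0.17 ± 0.53 (SD, n = 4) with replicate 4 lowest. Cebpb, a factor of myeloid cells, had a level of 0.04 ± 0.21 and the oxysterol receptor gene Nr1h3 0.30 ± 0.20 (SD, n = 4). The other Cebpb probe, also well above background on every array, had -2.74 ± 0.26 (SD, n = 4). Replicate 3 was highest on it and replicate 1 on the brighter probe. Irf8 and Cebpa, which act beside PU.1 in myeloid development, lacked the flag on every array.

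Of the surface receptors, 5 of 10 were detected. They included the Fc receptor genes Fcgr1a, Fcgr2b and Fcgr3a, at -0.71 ± 0.15, -1.18 ± 0.30 and -0.55 ± 0.15, and the scavenger receptor gene Cd36 at -2.59 ± 0.44 (SD, n = 4), whereas Cd14 and Msr1 were on no array. The other probe of Cd36 was well above background on no array, at 9.75, 3.04, 4.06 and 9.44 on replicates 1 to 4. Of 8 genes of the growth factor axis, Tgfb1, a cytokine needed by alveolar macrophages, and its receptor gene Tgfbr2 were detected, at -2.69 ± 0.62 and -1.59 ± 0.39 (SD, n = 4). The Tgfbr2 level is that of 1 probe, and its other probe was well above background on no array, at 12.3, 9.21, 5.42 and 13.0. Csf1 and Il34, the ligands of the Csf1r receptor, lacked the flag on every array. No gene of the integrin list and no complement C1q gene was detected on all arrays, with the alpha chain genes Itgal and Itgad and the C1q genes C1qa and C1qb on none. Itgb2, which encodes the beta chain that pairs with CD11b, was well above background on replicates 1 and 3, with signals of 37.9, 13.1, 21.1 and 5.67, and is named after its values were seen.

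**Figure D4:**
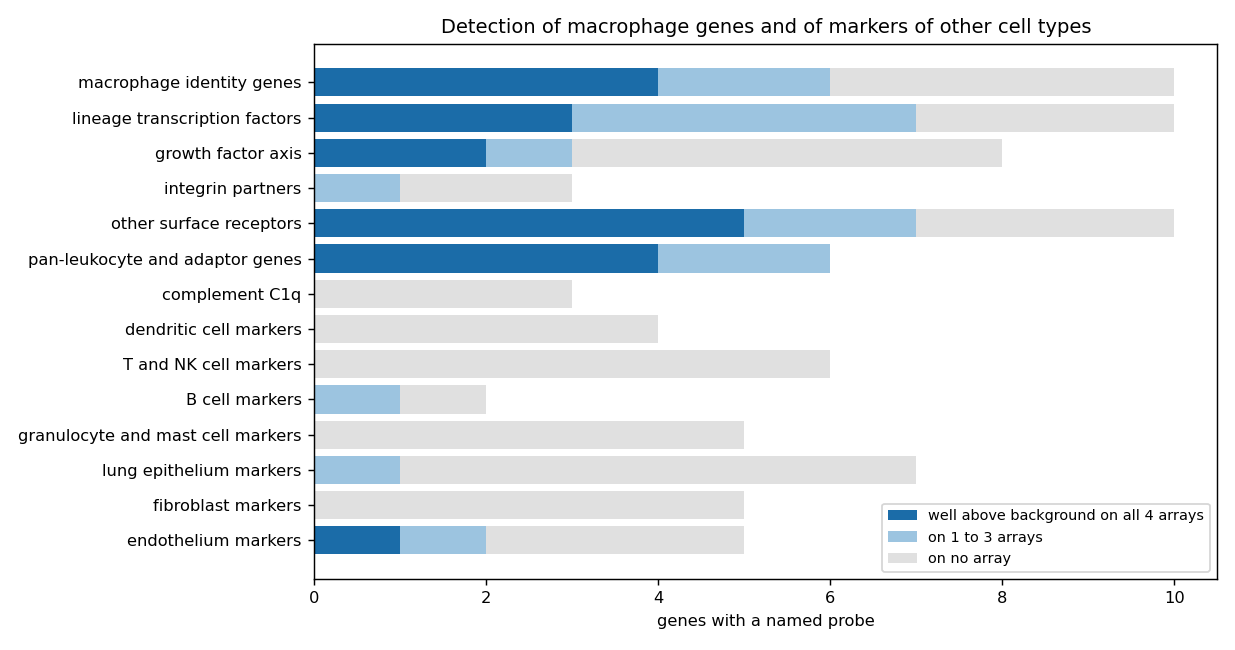
Number of genes with a named probe in each list, split by the number of arrays with a well above background call (all 4, 1 to 3, or none). Macrophage identity genes had 4, 2 and 4 genes in these classes, and the lists of other cell types together had 1, 3 and 30.

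Markers of other cell types mostly lacked the well above background flag. Of 34 genes, 1 was detected on all arrays (2.94%, against 11.9% of named genes), 3 on some and 30 on none. The detected gene was Vwf, the von Willebrand factor gene of endothelium, with signals of 65.9, 56.8, 56.6 and 77.9 on 1 probe (A_43_P21694). Its other probe (A_64_P114913) was well above background on no array, at 4.22, 9.30, 3.42 and 4.68. The 3 on some arrays were Sftpb and Cdh5, on replicate 4, and the B cell factor gene Pax5, on replicates 3 and 4, with signals of 15.0, 12.5, 21.0 and 28.3. Pax5 is named after its values were seen. Zbtb46 of dendritic cells, Cd3e of T cells, S100a8 of granulocytes, Sftpc of lung epithelium, Col1a1 of fibroblasts and Pecam1 of endothelium were well above background on no array. Set against the label of a macrophage line, the macrophage markers Lyz2, Cd68, Spi1 and Aif1 were detected on every array, and Csf1r, Adgre1, Mrc1 and Itgam on none.

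The 4 detected members differed in their spread over the 4 arrays. Each array held 1 culture, so differences between cultures and between arrays cannot be told apart. Their SD over the arrays was 0.11 for Lyz2, 0.12 for Aif1, 0.61 for Cd68 and 0.73 for Spi1, with a median of 0.36 against 0.24 over all detected named genes. The order of these medians changed with the processing. That of the members was lower with the percentile over all gene probes (0.57 against 0.85), quantile normalization (0.25 against 0.36), normexp (0.155 against 0.167), the median pixel (0.178 against 0.237, and 0.166 against 0.251 with negative controls subtracted) and without replicate 4 (0.103 against 0.192). Without scaling it was 0.48 against 0.46. Replicate 4 was highest in 2 of them, Cd68 and Spi1, against 30.1% of detected genes, and lowest in Aif1. The 2 members with the small SDs had 10 and 2 spots per array, and the 2 with the large SDs had 1. Among the further macrophage genes detected on all arrays, the SD ran from 0.15 (Fcgr1a) to 0.64 (Coro1a) with 1 spot. With 10 spots it ran from 0.10 (Tyrobp) to 0.44 (Cd36). Whether spot number bears on the spread was not tested.

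The genes whose 4 levels, centred on their mean, lay nearest to each member were found by the root mean square difference over the 4 arrays. They were Trim47 (0.020) and Agt (0.020) for Lyz2, Dok1 (0.021) and Nop53 (0.022) for Aif1, Canx (0.077) and Ppp2r1b (0.077) for Cd68, and Cdkn1a (0.066) and Chmp2a (0.071) for Spi1, all on the log2 scale. Lyz2 had 173 of 1945 genes within 0.1 and Aif1 189, so their neighbours are not distinctive. Cd68 had 3 and Spi1 4. The distance was not scaled by the SD, which was larger for Cd68 and Spi1. These smaller counts therefore cannot show whether their neighbours are distinctive. With 4 arrays, of which 1 stood apart, such nearness is a description only.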

How the data were processed

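Per the file headers, the deposited files hold linear spot intensity from Agilent arrays read in 1 colour. The authors used Agilent Feature Extraction (version 11.0.1.1 in the submitters' processing notes), which subtracted the background to give the processed signal and did not scale the arrays to each other. Where a spot was not significant against background, it lay between 2.26 and 5.10 although the background-subtracted values reached below 0, so low values are floors. Control spots and spots flagged as non-uniform or outliers were left out, log2 signals of a probe's spots were averaged, and the scale of an array was the 75th percentile over probes with a well above background call on every array. A gene took the value of its brightest detected probe. Probes were named by matching unversioned transcript accessions to RefSeq genes of GRCr8, which covered 21109 probes (46.3%). The file headers name an older build, so only the coordinates of the printed promoters are given, in GRCr8.

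Members and lists were chosen with earlier results of these data known. Named were all members, in each macrophage list the first 4 detected genes and the first 2 on no array, in each other list the detected genes and the first on no array, and the 2 genes nearest to each detected member. The F test used limma (version 3.58.1, under R version 4.3.3) on probes with 3 or more spots kept per array, adjusted by Benjamini-Hochberg and checked on simulated data. Python version 3.11.15 did the rest. The alternatives were other detection rules, scalings and background corrections, all spots, other probe rules and leaving out each replicate. The planned normexp correction used the median signal, with an offset of 50. The median pixel readings and the weaker flag were added after seeing the data.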

Additional observations from a re-analysis of the deposited data

Results flagged for a closer look

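Dixon's criterion was applied to the 14 member probes and the 15 further list genes detected on all arrays. In 2 of 29 sets of 4 levels, a value lay far from the other 3. Chance gives about 1 in 20 for independent measured values. The sets here shared the same 4 arrays and some held floors, so this rate is no test of the count. The level of Spi1 on replicate 4 was the highest, with a gap of 0.904 of the whole range. The level of the second Aif1 probe (A_44_P421534) on replicate 4 was the lowest, with a gap of 0.933 of the range, and the first Aif1 probe was not set apart in this way. That value was not well above background and was close to its error (5.32, with an error of 5.12), so the size of its gap is uncertain. Read by the median pixel, without negative controls subtracted, no gap of the 14 member probes passed the criterion. That of Spi1 on replicate 4 was 0.778, and on the second Aif1 probe replicate 4 was not the farthest array (largest gap 0.150). Both sets rest on 1 spot per array.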

How the results depend on the processing

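The count of members well above background stayed between 3 and 5 of 10 under every detection rule, spot rule and left-out replicate tried. It was 4 without any 1 replicate, and 3 when every probe of a gene had to pass. The probes of the members numbered 6 to 8, and 6 or 7 without 1 replicate. The further macrophage genes numbered 11 to 20, and 14 without any 1 replicate. The count over all named genes moved with the rule too. It was 1562 when every probe of a gene had to pass, 1946 (11.9%) in the main setting and 3847 (23.4%) with the weaker flag. Without 1 replicate it was 1951 to 2459. The median SD of the detected members was 0.10 to 0.44 when 1 replicate was left out, and lay below that of all detected genes without replicate 4 and above it without any of the others. The median difference of replicate 4 from the others, 0.57 on the log2 scale, was -1.0 with the percentile over all gene probes, -0.16 with quantile normalized arrays, 0.17 with unscaled arrays, 0.16 with normexp, 0.15 with the median pixel and 0.080 with negative controls also subtracted. It was 0.52 to 0.64 without 1 of the other replicates. By gene, the percentile over all gene probes gave -1.53 for Lyz2, -0.47 for Cd68 and -0.11 for Spi1. Quantile normalization gave -0.11 for Lyz2 and -0.21 for Cd68. Lyz2 was at -0.37 without scaling and -0.056 with normexp. Aif1 was at 0.088 with normexp and 0.054 with the median pixel. Scaling by all gene probes, or none, shifts all genes of an array alike, and the cause of the other changes was not tested. Of the 2 Lyz2 probes that limma could test, 0 to 2 were called without 1 replicate. They were 0 without replicate 2 (1 at an unadjusted p under 0.05 in limma) and 1 without replicate 3 or 4. Among all 1350 probes tested, 1093 were called with all arrays. No paired analysis was possible because the samples form 1 group. Signal over background limits Csf1r, Mrc1, Adgre1 and Itgam, which were well above background on no array.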
